A study of Mus musculus with 14 samples.

Results

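DNA replication genes were followed in mouse acute myeloid leukaemia cells that carry a switchable MLL-AF9 oncogene. They are 39 genes fixed by name, for the proteins that mark replication origins, load and start the MCM helicase, and copy, join and repackage the new DNA. All 39 were found by symbol in both deposited expression tables, among 13406 genes in the table of the doxycycline experiment and 14563 in that of the Id2 experiment. The leukaemias were raised on the C57/BL6 background by returning foetal liver cells to irradiated mice. Those cells had received a Tet-Off MLL-AF9 vector with a dsRED reporter, and another vector with oncogenic NRASG12D and the Tet-Off activator, so that every library in both experiments carries both transgenes. Leukaemic cells were taken from the spleens of terminally sick mice. In the doxycycline experiment, 4 libraries came from cells left untreated and 4 from cells kept in doxycycline in vitro for 4 days, which turns MLL-AF9 expression off. In the Id2 experiment, MLL-AF9 stayed on, and cells were transduced with a retrovirus for Id2-GFP (3 libraries) or for control-GFP (3 libraries) and sorted for GFP 2 days later. No library had doxycycline without the Tet-Off switch, so an effect of the drug and an effect of MLL-AF9 loss cannot be told apart. The labels used here give no day for the untreated cells, so an effect of time in culture cannot be told apart either.

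Replication begins when the origin recognition complex, with CDC6 and CDT1, loads the ring of MCM2 to MCM7 proteins onto DNA. The kinase of CDC7 and DBF4 then prompts CDC45 and the GINS complex to join the ring, which becomes the moving helicase. Polymerase alpha-primase lays down primers, polymerases delta and epsilon extend them with the PCNA clamp, and the flaps between fragments are trimmed by FEN1 and sealed by LIG1. Many of these genes are known targets of E2F transcription factors, which the RB family restrains outside S phase, and their transcripts are abundant in dividing blood progenitors.

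Libraries of the doxycycline experiment held 17922644 to 25959766 reads and those of the Id2 experiment 14051150 to 14948487. The members had 123 to 11374 reads per library in the first and 94 to 7686 in the other. Levels are given as CPM, reads scaled to library size, after the authors' library scaling, and changes are differences of mean log2 CPM with their standard error (SE) and a p adjusted over all genes of the table. Mll1 (Kmt2a), which the fusion contains in part, went from between 2000 and 6370 CPM untreated to between 114 and 144 in doxycycline, and Mllt3, its fusion partner, from between 234 and 811 to between 5.3 and 6.81. Id2 went from between 25.8 and 51.5 CPM with the control virus to between 952 and 1630 with the Id2 virus. In the doxycycline experiment Id2 was higher as well, at 21.4 to 33.5 CPM untreated and 80.4 to 92.6 in doxycycline. The 8 listed monocyte and macrophage genes all rose with doxycycline, and their summed level went from 2700 to 5530 CPM untreated to 24100 to 35600. Of 9 progenitor and leukaemia genes, 5 fell and 3 rose. The summed level of those 9 went from 3100 to 3460 CPM untreated to 3900 to 4730. Of the T and NK cell genes Lck alone was in this table, at no more than 1.06 CPM, and of the B cell genes Cd79b alone, at no more than 22.8 CPM. Of 4 megakaryocyte genes 3 were measured, with a summed level of 22.2 to 47.4 CPM untreated and 6.10 to 13.2 in doxycycline, and none of the erythroid or stromal genes was among the genes tested. The part of this shift in cell identity in the changes of the replication genes was not tested. In the Id2 experiment no marker list had a gene past the test, and control-GFP replicate 3 stood apart from the other libraries, with a scaling factor of 0.913 against 1.006 to 1.026 in the rest and 34 genes at 0 reads. Nothing in the labels says that replicates were separate animals, so p-values measure the spread between these samples, which may be technical.

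Promoter stretches are shown first, because many members share short sequence elements. RefSeq (GRCm38.p6) gave a window of 250 bases before to 50 after the start for 31 of the 39 genes, and none was used for Gins1, Gins2, Gins4, Gmnn, Mcm4, Pole, Prim2 and Rfc2. The E2F-type letters searched were TTTCCCGC, TTTGGCGC and TTTCGCGC on either strand, which can overlap each other. Of the 31 genes, 6 had more than 1 window, and a gene was counted if any of its windows held a match. By gene, 13 of the 31 (41.9%) held at least 1 of these letters, against 4.19% of the 9007 genes of the doxycycline table with a window. Counted by window and not by gene, 1.84% of all 32851 windows did. Capitals mark the match in the stretches below, written 5′ to 3′ on the gene's strand, which place these letters from the origin complex through the helicase to the polymerases.
Orc1, chr4:108579403-108579453, plus strand: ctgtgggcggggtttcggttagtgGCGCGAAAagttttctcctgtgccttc
Cdc6, chr11:98907989-98908044, plus strand: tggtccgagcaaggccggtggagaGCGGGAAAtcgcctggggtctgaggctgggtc
Mcm3, chr1:20820275-20820304, minus strand: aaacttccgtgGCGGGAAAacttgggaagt
Mcm5, chr8:75109332-75109387, plus strand: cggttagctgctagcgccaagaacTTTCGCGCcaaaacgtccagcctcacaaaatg
Mcm6, chr1:128359780-128359835, minus strand: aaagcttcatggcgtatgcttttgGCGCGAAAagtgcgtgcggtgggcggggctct
Mcm7, chr5:138172017-138172072, minus strand: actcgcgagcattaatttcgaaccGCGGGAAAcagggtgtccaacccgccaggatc
Gins3, chr8:95633494-95633549, plus strand: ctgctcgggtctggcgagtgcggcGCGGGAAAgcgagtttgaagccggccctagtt
Pola1, chrX:93632262-93632317, minus strand: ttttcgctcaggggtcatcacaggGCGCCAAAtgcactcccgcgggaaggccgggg
Pole2, chr12:69228162-69228191, minus strand: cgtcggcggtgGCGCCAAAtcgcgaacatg

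The other holders were Cdt1, Pold1, Rfc3 and Lig1. The mitosis and G2/M genes, set beside the members for comparison, held E2F-type letters in 1 of 19 genes with a window. They held TTTGAA, the letters of the CHR element known from promoters of late cell cycle genes, in 13 of 19 (68.4%), against 7 of 31 (22.6%) for the replication genes and 14.3% of measured genes with a window. CCAAT was found in 19 of 31 replication genes with a window (61.3%), in 15 of 19 of the mitosis list and in 43.4% of measured genes with a window. A match describes letters and not a bound site. The 13 members with E2F-type letters had a median change of -0.92 after doxycycline (from -1.21 to -0.47), and the 18 with a window and none had -0.82 (from -1.19 to -0.31), and the ranges overlapped.

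The doxycycline comparison asks how these genes stood once MLL-AF9 was turned off. All 39 members fell, by 1.24-fold to 2.31-fold with a median of 1.79-fold, with the helicase gene Mcm2 and its loader Cdc6 at the far end and Dbf4, Pcna, Gins4 and Rpa1 at the near end. Each of the 39 passed limma's test, with adjusted p from 2.3e-07 to 3.81e-04, where 33.8% of the genes tested fell and 31.3% rose. In all 39 the doxycycline libraries lay wholly below the untreated ones, as they did for 31.1% of the genes tested, and 28.9% lay wholly above. The median change was -0.84 (log2) over the members and -0.03 over all genes. The fall was at least 2-fold in 9 members, Cdc6, Mcm2, Pole2, Mcm7, Prim1, Mcm5, Mcm10, Pole and Chaf1a. Of all 13406 genes, 695 passed the test with such a fall. It was under 1.5-fold in 8 members, a level not counted over all genes. The median member stood between 6.24 and 6.31 log2 CPM in the untreated libraries and between 5.42 and 5.51 in doxycycline. In these bulk samples fewer cells in cycle and less of each transcript per cell cannot be told apart. When reads were scaled by library totals alone, 6912 genes fell and 2702 rose in place of 4535 and 4198. The median of all genes moved to -0.27 and the members' median to -1.08. Such rescaling shifts all genes of a library alike, so the difference of -0.81 between these medians stayed the same by construction.

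**Figure D1:**
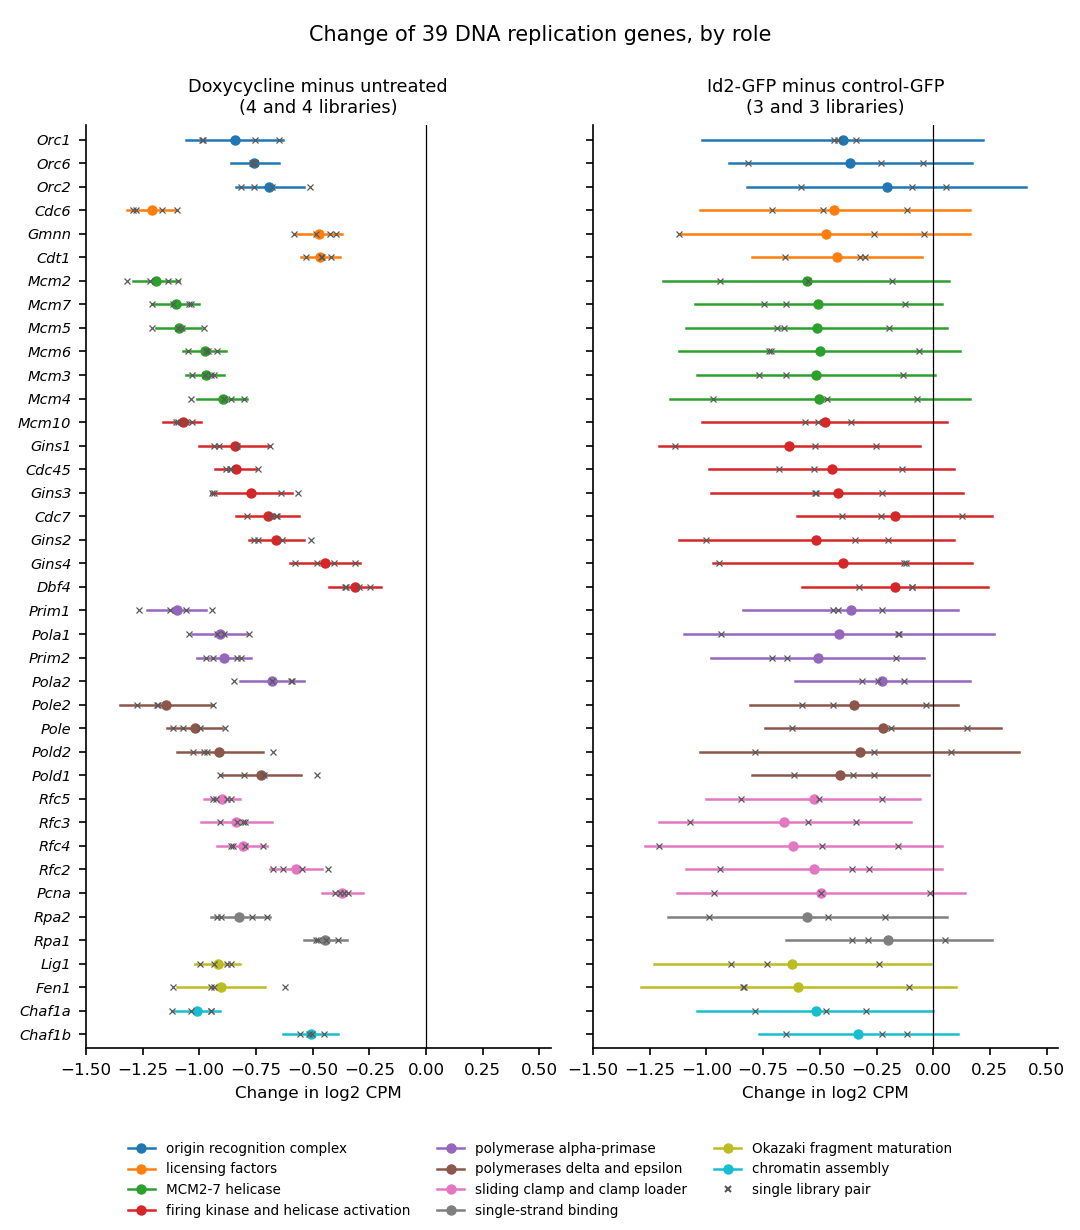
Change in log2 CPM of each of the 39 genes, coloured by role, with doxycycline minus untreated on the left and Id2-GFP minus control-GFP on the right. Dots are fitted changes, bars are 95% intervals and crosses are single library pairs. Every bar on the left lies below 0, from Cdc6 at -1.21 to Dbf4 at -0.31, and 7 bars on the right do.

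Origin recognition genes fell together, with changes from -0.84 to -0.69. On GRCm38 coordinates, Orc1 (chromosome 4, 108579423 to 108614833) encodes the largest subunit of the complex and had the lowest level per kilobase of the 39 in both groups (4.95 and 2.77 CPM per kb). It stood at 15.3, 14.1, 14.6 and 15.7 CPM in untreated libraries 1 to 4 and at 9.77, 8.39, 7.36 and 7.93 CPM in doxycycline, a change of -0.84 ± 0.095 (SE, adjusted p = 4.24e-05). Orc2 (chromosome 1, 58462771 to 58505109) went from 55.4 to 57.8 CPM untreated to 31.5 to 39.2 in doxycycline, a change of -0.69 ± 0.066 (adjusted p = 1.4e-05). Orc6 was the steadiest member across the pairs, with within-pair differences from -0.77 to -0.75. None of the 3 overlapped between groups.

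The licensing factors split. Cdc6 (chromosome 11, 98907801 to 98923940), the ATPase that bridges the origin complex and the helicase, fell furthest of the 39. Its levels were 78.0, 72.3, 73.3 and 75.6 CPM untreated and 31.9, 32.2, 34.2 and 31.1 CPM in doxycycline, a 2.31-fold fall (-1.21 ± 0.047, adjusted p = 2.41e-07). Cdt1 (chromosome 8, 122568015 to 122573554), its partner in loading, went from 99.9, 102, 105 and 101 CPM to 74.8, 73.9, 72.8 and 73.1. Gmnn encodes geminin, the inhibitor that holds CDT1 in check, and went from 68.1, 63.3, 63.0 and 67.3 CPM to 48.6, 47.2, 47.9 and 45. Both were lower in every doxycycline library than in any untreated one, at 1.38-fold and 1.39-fold (adjusted p = 3.89e-06 and 1.8e-05), well short of the fall in Cdc6.

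The MCM2 to MCM7 genes, which encode the ring of the replicative helicase, fell as a block with a median of -1.03 and changes from -1.19 to -0.90. Mcm2 (chromosome 6, 88883474 to 88898780) stood at 330, 301, 312 and 309 CPM untreated and at 132, 141, 142 and 133 in doxycycline (2.28-fold lower, -1.19 ± 0.045, adjusted p = 2.41e-07). Mcm7 (chromosome 5, 138164583 to 138172422) stood at 357, 342, 367 and 335 CPM and then at 155, 166, 169 and 163 (2.15-fold lower, adjusted p = 2.78e-07). The least change in the ring was that of Mcm4 (chromosome 16, 15623897 to 15637400), with 251, 231, 237 and 240 CPM untreated and 122, 125, 130 and 138 in doxycycline (1.86-fold lower, adjusted p = 6.74e-07). Mcm3, Mcm5 and Mcm6 lay between, at 1.96-fold, 2.13-fold and 1.97-fold. Per kilobase of transcript, which allows levels of different genes to be set side by side, Mcm6 was the highest of the ring and Mcm4 the lowest in both groups. They stood at 163 and 66.8 CPM per kb untreated and at 83.1 and 35.9 in doxycycline, so that the ratio of highest to lowest was 2.44 before and 2.31 after.

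**Figure D2:**
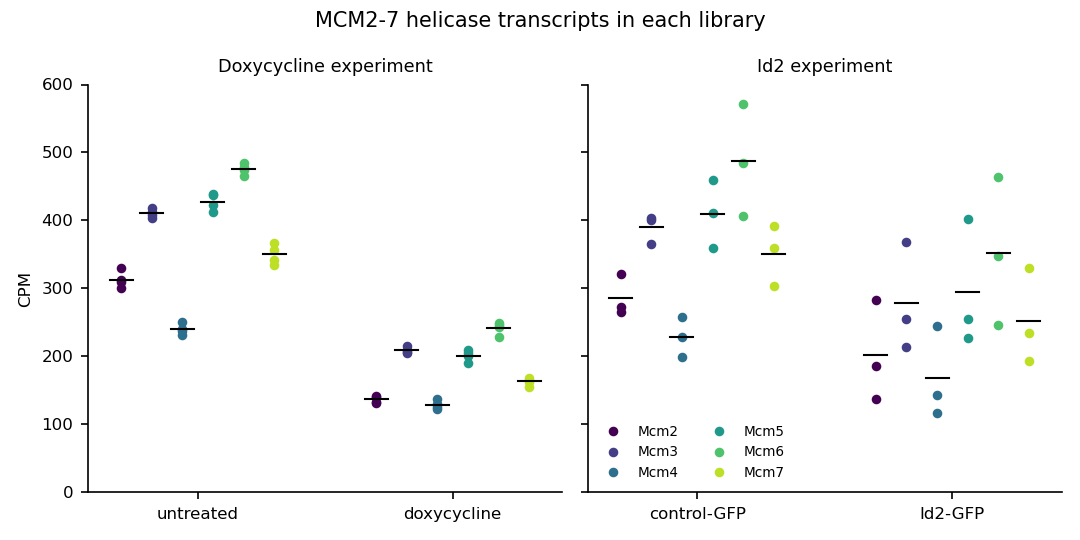
CPM of the 6 MCM2 to MCM7 genes in each library (dots) with the group mean (black bar), for the doxycycline experiment on the left and the Id2 experiment on the right. Untreated and doxycycline dots do not overlap for any of the 6 genes, as for Mcm2 at 301 to 330 against 132 to 142 CPM, while control-GFP and Id2-GFP dots do.

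Genes that fire origins and switch the helicase on had changes from -1.07 to -0.31, with a median of -0.73. Mcm10 (chromosome 2, 4989714 to 5012791), whose product helps activate the helicase, went from 97.7, 95.2, 94.7 and 94.6 CPM to 45.8, 46.5, 45.5 and 44.0, a change of -1.07 ± 0.038 (adjusted p = 2.3e-07). Dbf4 (chromosome 5, 8396973 to 8422716), the regulatory subunit of the firing kinase, went from 79.2, 76.6, 73.9 and 79.1 CPM to 64.5, 64.5, 57.6 and 61.9. That was the smallest fall of the 39 (1.24-fold, -0.31 ± 0.050, adjusted p = 3.81e-04), and Dbf4 was the least changed member in each of the 4 library pairs. Cdc7, its catalytic partner, went from 42.4, 50.7, 46.1 and 45.2 CPM to 26.9, 29.3, 28.6 and 28.6 (1.62-fold lower, adjusted p = 8.63e-06). Cdc45 fell 1.79-fold. The GINS subunits, which tie the helicase to the leading-strand polymerase, did not fall evenly, with Gins1 at 1.79-fold, Gins3 at 1.71-fold, Gins2 at 1.58-fold and Gins4 at 1.36-fold. Gins4 stood at 37.6 to 45.6 CPM untreated and 30 to 32.7 in doxycycline (adjusted p = 3.14e-04), without overlap.

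The polymerases fell by 1.6-fold to 2.21-fold. Prim1 (chromosome 10, 128015168 to 128030037), the catalytic primase subunit, went from 73.0, 72.3, 70.1 and 66.2 CPM to 30.3, 34.7, 32 and 34.4 (2.14-fold lower, -1.1 ± 0.058, adjusted p = 6.09e-07). Its regulatory partner Prim2 fell 1.85-fold, the catalytic subunit gene Pola1 1.88-fold and the accessory subunit gene Pola2 1.6-fold. Pole (chromosome 5, 110286306 to 110337474), the catalytic subunit of the leading-strand polymerase, went from 116, 128, 118 and 111 CPM to 55.3, 59.0, 59.1 and 60.1 (2.03-fold lower, adjusted p = 5.39e-07). Pole2, an accessory subunit, fell 2.21-fold on fewer reads and with a wider error (-1.15 ± 0.090). Pold1 and Pold2, of the lagging-strand polymerase, fell 1.66-fold and 1.88-fold, and doxycycline replicate 2 was the highest doxycycline library for both, at 89.5 and 33.9 CPM.

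Pcna, the sliding clamp, behaved apart from most of its loader. The gene (chromosome 2, 132249162 to 132253314) stood at 366, 352, 353 and 356 CPM untreated and at 285, 278, 271 and 270 in doxycycline, a 1.29-fold fall (-0.37 ± 0.039, adjusted p = 2.72e-05). It had the highest level per kilobase of the 39 in both groups, at 235 ± 4.25 CPM per kb (SD, n = 4) untreated and 182 ± 4.63 (n = 4) in doxycycline. Of the clamp loader genes, Rfc5 fell 1.87-fold, Rfc3 1.79-fold, Rfc4 1.75-fold and Rfc2 1.49-fold. Pseudogene copies of Pcna and the unstated strand of the libraries leave some reads uncertain. More than 50% of the exonic bases of Fen1 (84.2%), Gins2 (67.3%) and Chaf1a (52.5%) lie over exons of other genes.

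Single-strand binding and fragment joining genes also fell. Rpa1, the large subunit of the single-strand binding complex RPA, went from 223, 227, 218 and 229 CPM to 170, 167, 157 and 164 (1.36-fold lower, -0.45 ± 0.041, adjusted p = 1.12e-05), while Rpa2 went from 79.2, 75.9, 82.4 and 69.1 CPM to 42.3, 44.6, 43.6 and 42.6 (1.77-fold lower, adjusted p = 2.16e-06). Lig1 (chromosome 7, 13277283 to 13311433), the ligase that seals Okazaki fragments, went from 197 to 216 CPM to 105 to 113 (1.89-fold lower, adjusted p = 4.54e-07), and Fen1 fell 1.87-fold. Chaf1a and Chaf1b encode subunits of CAF-1, which places histones on new DNA. Chaf1a (chromosome 17, 56040439 to 56072289) went from 136, 131, 135 and 132 CPM to 62.5, 68.1, 69.9 and 64.1 (2.02-fold lower, adjusted p = 3.32e-07), and Chaf1b from 50.4, 44.5, 49.6 and 49.5 to 34.3, 32.6, 34.7 and 34.9 (1.42-fold lower, adjusted p = 2.61e-05).

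Ratios between partner genes of 1 library do not depend on the scaling of that library, and 10 such ratios were compared with an exact two-sided permutation test. With 4 libraries against 4, the smallest p this test can give is 0.0286. It was reached by 4 ratios, which had 0.0714 after adjustment over the 10 ratios, so none passed 0.05. That adjusted value depends on how many ratios reach the smallest p and is not a limit of the design. This test ignores the library pairs. Within pairs the smallest exact p is 0.125, and no ratio had an adjusted exact p under 0.156. Of the 8 runs that left out 1 library, 7 gave no adjusted exact p below 0.0714. The run without untreated replicate 3, which also breaks its pair, gave 0.0476 for 6 ratios. For 4 ratios, untreated and doxycycline libraries did not overlap, with that smallest p. The log2 ratio of Chaf1a to Chaf1b went from 1.46 ± 0.07 (SD, n = 4) to 0.95 ± 0.10 (n = 4), exact p = 0.0286. That of Cdc6 to Orc6 went from 0.53 ± 0.03 to 0.08 ± 0.08. The ratio of Dbf4 to Cdc7 rose from 0.75 ± 0.14 to 1.13 ± 0.10 in mean, and that of Rpa1 to Rpa2 from 1.55 ± 0.14 to 1.93 ± 0.07. Cdt1 to Gmnn, the loader to its inhibitor, stood at 0.64 in both groups (exact p = 0.914), and Orc1 to Orc2 and Pole2 to Pole overlapped as well (exact p = 0.314 and 0.343). Pola1 to Pola2, Prim1 to Prim2 and Pold1 to Pold2 differed by -0.23, -0.21 and 0.18, with overlapping libraries (exact p = 0.0571, 0.0571 and 0.0857).

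**Figure D3:**
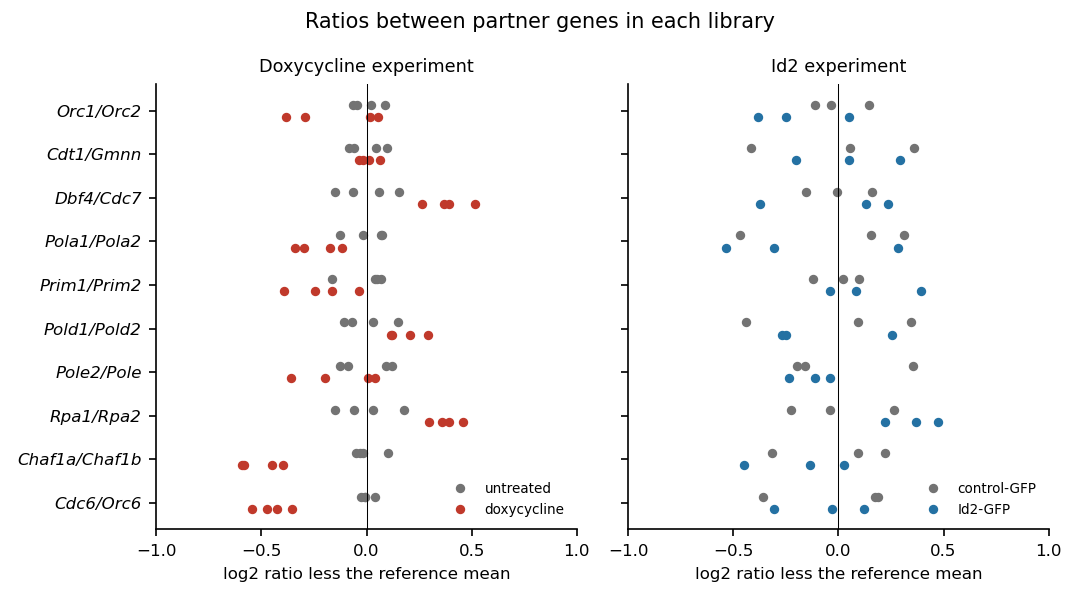
Log2 ratio of each pair of partner genes in each library, less the mean of the untreated or control-GFP libraries, for the doxycycline experiment on the left and the Id2 experiment on the right. In the left panel 4 of the 10 ratios separate the groups, with Chaf1a/Chaf1b and Cdc6/Orc6 lower and Dbf4/Cdc7 and Rpa1/Rpa2 higher in doxycycline, and in the right panel the groups overlap for all 10.

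Subunits of the same complexes that are not among the 39 genes had a smaller median fall. Of 10 measured, 8 fell and the median was -0.41, against -0.84 for the members. Both lists were chosen with earlier results of these data known, so this difference is a description and not a test. Rpa3, the smallest RPA subunit, changed by -0.81, Pole4 by -0.57, the CAF-1 subunit Rbbp4 by -0.52, Pole3 by -0.47, Orc5 by -0.42, the large clamp loader subunit Rfc1 by -0.41, Pold3 by -0.36 and Orc3 by -0.20 (adjusted p from 2.41e-06 to 0.00402). Orc4 stood at 31.9 ± 1.62 CPM (SD, n = 4) untreated and 30.1 ± 1.34 in doxycycline, and Pold4 at 61.4 ± 3.75 and 68.0 ± 13.1, and neither passed (limma adjusted p = 0.21 and 0.395). Pold4 was above its untreated mean with the authors' scaling, by 0.13, and below it with library totals, by a change of -0.11. With library totals Orc4 passed as lower (-0.32, limma adjusted p = 4.88e-04), which made 9 of 10.

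Of the accessory and fork genes 28 of 28 fell, with a median of -0.78. With the replicate block 27 did, since Mcmbp, named after its values were seen, did not pass (limma adjusted p = 0.0511), and with median-of-ratios scaling 27 did as well (0.113). Atad5, which helps unload PCNA, fell by 1.09 on the log2 scale, Tipin of the fork protection complex by 1.1, Topbp1, which helps assemble the helicase, by 0.86 and the checkpoint mediator Clspn by 0.86 (adjusted p from 2.41e-07 to 3.3e-07). Of 11 genes of dNTP supply 8 fell, with a median of -0.82. Among them were Shmt1 (-1.44) and Tyms (-0.82) of thymidylate synthesis, Dut (-1.29), which removes dUTP, and the ribonucleotide reductase subunit Rrm1 (-0.79). With quantile normalization the median of the dNTP supply list was -0.93, past the members' median of -0.90. Samhd1, which breaks dNTPs down and was named after its values were seen, rose by 1.45, from 145 ± 16.5 to 396 ± 32.1 CPM (adjusted p = 1.05e-06). The E2F and RB list was mixed, with 8 of 13 lower and 2 higher. Tfdp1 (-0.77), the partner of E2F proteins, and E2f6 (-0.83), E2f7 (-0.82) and E2f8 (-0.68), known as repressors, fell. E2f2 rose by 0.76 and Rb1 by 0.47, both named after their values were seen (adjusted p = 5.44e-05 and 6.68e-05), and both were also higher with each other scaling tried. With the replicate block E2f1 changed by -0.35 and E2f4 by -0.46 (limma adjusted p = 1.48e-04 and 2.86e-05). E2f3, named after its values were seen, changed by -0.02 there (limma adjusted p = 0.692). The RB family did not move as 1, since with that block Rbl1 changed by -0.505 and Rbl2 by 0.04 (limma adjusted p = 3.25e-05 and 0.519). Both were named after their values were seen.

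Mitosis and G2/M genes fell too, in 24 of 24, with a smaller median. Their median was -0.51, their range was -0.72 to -0.24, and 0 of the 24 fell past the members' median with the authors' scaling. With quantile normalization 2 did, Top2a (-0.97) and Mki67 (-0.92, named after its values were seen), against a members' median of -0.90. Those with the smallest p were Top2a (-0.72), which untangles DNA, the mitotic kinase gene Cdk1 (-0.57), the kinetochore motor gene Cenpe (-0.50) and the spindle gene Tpx2 (-0.54). The ordering held in every library pair, with medians of -0.88, -0.80, -0.91 and -0.86 for the members of pairs 1 to 4 and -0.49, -0.48, -0.49 and -0.56 for the mitosis list, both given as a description. Of 9 S phase checkpoint genes 7 fell, with a median of -0.58, led by Chek1 (-1.02), Wee1 (-0.81), Cdc25a (-0.70) and Atr (-0.60). Of 7 translesion synthesis genes 4 fell, Rev1 (-0.94), Rad18 (-0.81), Poli (-0.78) and Rev3l (-0.43). The counts of fallen genes depended on the scaling in several lists. With library totals they were 10 of 11 for dNTP supply, 10 of 13 for E2F and RB, 9 of 9 for S phase checkpoint and 7 of 7 for translesion synthesis, and with the replicate block 8 of 9 S phase checkpoint genes fell.

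**Figure D4:**
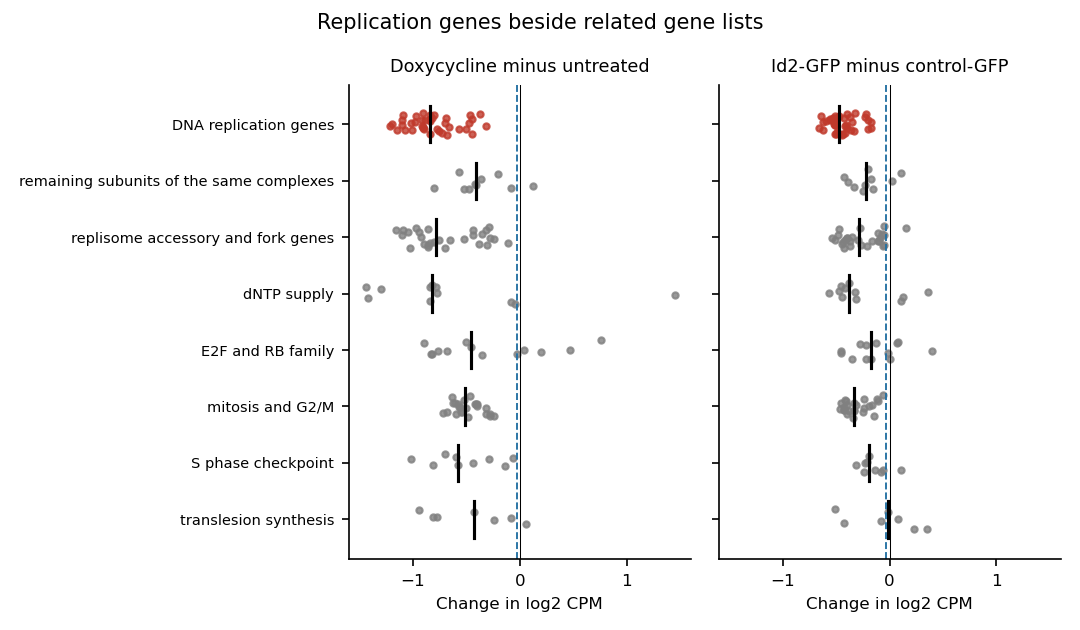
Change in log2 CPM of each gene (dots) and the median (black bar) of the 39 replication genes and of 7 related lists, with doxycycline minus untreated on the left and Id2-GFP minus control-GFP on the right, and the median of all genes as a dashed line. In the left panel, with the authors' scaling, the medians run from -0.84 for the replication genes to -0.41 for the remaining subunits. That of dNTP supply is -0.82, and Samhd1 at 1.45 is the farthest above 0.

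The Id2 comparison asks whether raising Id2, whose product binds E proteins and keeps them off DNA, moves the same genes while MLL-AF9 is on. None of the 39 members passed limma's test, with an adjusted p of 0.998 for each. All 39 had a lower mean with Id2-GFP, as did 8051 of all 14563 genes. The members' falls were 1.12-fold to 1.58-fold, with a median change of -0.47 (1.39-fold) against -0.03 over all genes. Across the genes tested 0% fell and 0.0137% (2 genes) rose at the threshold. With an unadjusted p under 0.05, 7 members were lower, and with the replicate block 22 were, a level not counted over all genes. Neither count can therefore be set against a share of the whole table. At the adjusted threshold the replicate block still had 0 members, while 19 genes fell and 16 rose in the whole table. Limma's smallest unadjusted p among members was 0.0258, for Rfc3. SEs were 0.161 to 0.302, against 0.036 to 0.095 in the doxycycline experiment.

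The Id2-GFP libraries lay wholly below the control-GFP ones for 3 members, Cdt1, Prim2 and Pold1, where 3.77% of all genes did so and 3.18% lay wholly above. Cdt1 stood at 107, 100 and 106 CPM with the control virus and at 86.7, 80.2 and 67.4 with Id2 (-0.43 ± 0.161, 95% interval -0.80 to -0.05). Prim2 went from 46.5, 42.9 and 50 CPM to 41.4, 27.4 and 30.5 (-0.51 ± 0.202), and Pold1 from 145, 127 and 144 to 121, 99.3 and 94.1 (-0.41 ± 0.168). Rfc3, the clamp loader gene with the lowest mean change, went from 37.2, 29.3 and 44.9 CPM to 29.3, 20 and 21.3 (-0.66 ± 0.237, interval -1.21 to -0.10), and its groups touched, since the highest Id2-GFP library equalled the lowest control at this precision.

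The MCM2 to MCM7 genes had nearly equal mean changes with Id2, from -0.56 to -0.50, and wide intervals. Mcm2 stood at 322, 265 and 272 CPM in control-GFP libraries and at 283, 138 and 186 in Id2-GFP (-0.56 ± 0.270, interval -1.19 to 0.07). Mcm6 stood at 484, 406 and 572 and at 464, 246 and 348 CPM (-0.50 ± 0.266, interval -1.12 to 0.12). For both genes Id2-GFP replicate 1 lay among the controls, and replicates 2 and 3 lay below the lowest control. The members nearest 0 were Cdc7 (-0.17), Dbf4 (-0.17), Rpa1 (-0.20), Orc2 (-0.21), Pole (-0.22) and Pola2 (-0.23). Orc2 stood at 54.4, 43.2 and 49.2 CPM and at 56.6, 28.9 and 46.2, with an interval from -0.82 to 0.41.

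The 3 library pairs of the Id2 experiment differed from each other far more than the 4 pairs of the doxycycline experiment. The members' median difference was -0.17 in pair 1, -0.51 in pair 2 and -0.65 in pair 3, and 36, 39 and 37 of the 39 members were below 0. Over all genes the median differences in these pairs were 0.01, -0.01 and -0.09. Pair 1 ranged from Mcm10 at -0.36 to Pold2 at 0.08, pair 2 from Mcm4 at -0.97 to Chaf1b at -0.12, and pair 3 from Rfc4 at -1.21 to Pole at 0.15. In all, 34 members were lower in each of the 3 pairs. Counts of genes below 0 by pair were not made over all genes, and genes that share libraries are not independent. Pair 3 contains control-GFP replicate 3, the library that stood apart, and without that library the members' median was -0.39. Without Id2-GFP replicate 1 the median was -0.68, with 25 members at an unadjusted p under 0.05, a level not counted over all genes. Without Id2-GFP replicate 2 the median was -0.33, and 0 members passed the adjusted threshold in each of these runs. In the pairs the mitosis list had medians of -0.04, -0.41 and -0.56, lower in size than the members' in each.

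**Figure D5:**
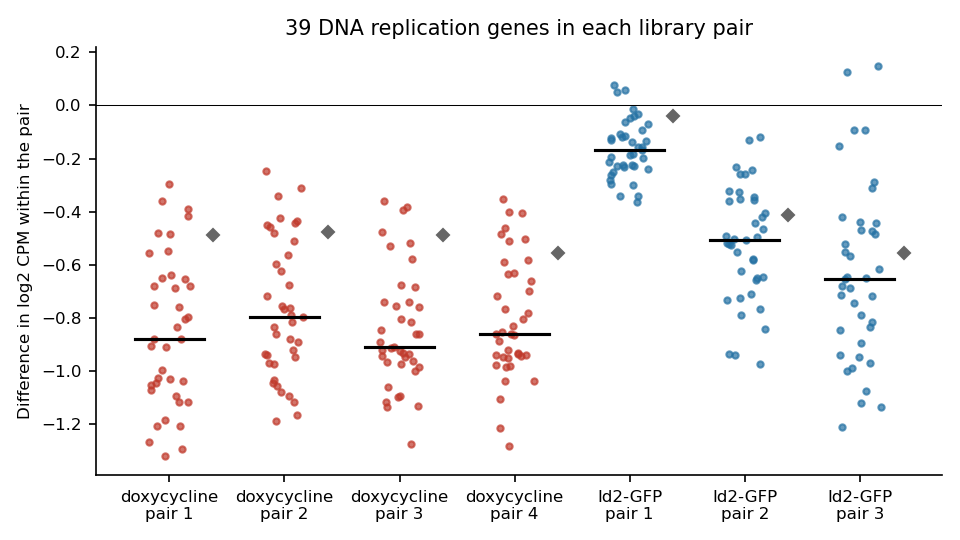
Difference in log2 CPM within each library pair for the 39 replication genes (dots), with their median (black bar) and the median of the 24 mitosis and G2/M genes (grey diamond). The members' medians sit between -0.91 and -0.80 in the 4 doxycycline pairs and spread from -0.17 to -0.65 over the 3 Id2-GFP pairs.

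Related lists had smaller median changes with Id2 than the replication genes and no gene past the test. The medians were -0.38 for dNTP supply, -0.33 for mitosis and G2/M, -0.28 for accessory and fork genes, -0.22 for the remaining subunits, -0.19 for S phase checkpoint, -0.17 for the E2F and RB list and -0.02 for translesion synthesis. By unadjusted p the leading genes were E2f1 (-0.45) and E2f4 (-0.27), Ndc80 (-0.46) and Aurkb (-0.46), Tyms (-0.45) and Rrm2 (-0.47), Dscc1 (-0.52) and Tipin (-0.54), Pole3 (-0.43) and Pold3 (-0.25), Cdc25a (-0.32) and Rad9a (-0.21), and Mad2l2 (-0.51) and Rad18 (-0.42). Among the remaining subunits, Orc3 (0.02) and Orc4 (0.11) were above their control mean, and Rpa3 (-0.39), Pole4 (-0.33), Rbbp4 (-0.23), Pold4 (-0.21), Orc5 (-0.17) and Rfc1 (-0.16) below it. None of the 10 partner ratios separated the groups, and with 3 libraries against 3 the smallest exact p is 0.1.

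Set side by side, 37 of the 39 members had a larger fall in the doxycycline experiment than in the Id2 experiment. The tables were normalized apart, and the difference between the experiments was not tested. For 10 members the doxycycline fall lay below the whole 95% interval of the Id2 change. Among them Mcm2 (-1.19) and Mcm5 (-1.09) equalled the lower bound at this precision. That count leaves out the error of the doxycycline change. It was not made over all genes, of which 65.1% passed the doxycycline test in either direction. Cdc6 changed by -1.21 in the doxycycline experiment and by -0.44 with Id2 (interval -1.03 to 0.16), and Pole by -1.02 and -0.22 (interval -0.74 to 0.30). The exceptions were Pcna, at -0.37 and -0.49, and Gmnn, whose means differed by less than the rounding at -0.47 in both. That count rests on single libraries of the Id2 experiment. It was 39 without control-GFP replicate 3 (Pcna at -0.31 and Gmnn at -0.25 with Id2) or without Id2-GFP replicate 2, and 33 without Id2-GFP replicate 1 or without control-GFP replicate 2. Across the 39 genes Pearson's r between the changes of both experiments was 0.33 and Spearman's rho 0.28, as a description over genes that share libraries and are not independent.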

How the data were processed

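The deposited log2 values are log2 CPM made by the authors, per the file headers and the values, with an offset of 0.5 reads over a scaled library size. Removing that offset gave whole reads, within 0.01 read, for 100% of values. Per the submitters' processing notes the tools were HTSeq, TopHat2, limma and CASAVA 1.8.2, with build mm10, and the strand setting is not given in the sources used here. Each CPM here is 2 to the power of the deposited value. Of 13419 entries in the doxycycline table, 13 repeated another and were left out. Of the 13406 genes left, 13361 exceeded 1 CPM in at least 2 libraries, as did all 14563 of the Id2 experiment, and no filter was added.

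Each comparison was fitted within its own table with limma 3.58.1 (R 4.3.3, eBayes with a mean trend, two-sided, Benjamini-Hochberg over all genes, threshold 0.05), without a pairing term. The titles give the doxycycline libraries shared pair labels and the Id2 libraries shared numbers. Pair 4 of the doxycycline experiment is labelled TRIMA1 and the other pairs TRIMA2. Titles of doxycycline replicates 1, 2 and 4 end in -R, which is not explained, and no untreated title does. A difference in handling was not tested. Same-numbered libraries deviated from their group means together (correlations of 0.454 to 0.552 and 0.472 to 0.581 over all genes), so pairs were treated as real. All other combinations were negative, but deviations cancel within a group, which pushes these values down, so their sign is no evidence. The SEs, intervals and p-values of the main fit ignore the pairing, and the replicate block was an alternative. Partner ratios were compared with exact permutation tests. Other alternatives were library scalings, variance models, limma-voom, an offset of 2 reads, a filter on low genes, and leaving out each library or pair.

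Gene positions and lengths (longest principal transcript) come from GENCODE M21 on GRCm38, and promoter windows from RefSeq. Python 3.11.15 and matplotlib 3.10.9 were used. The members and lists were chosen with earlier results of these data known, so differences between their medians are descriptions and not tests. Named genes are the 39 members, every remaining subunit, and of each other list the 4 genes with the smallest p after doxycycline and the 2 with the smallest p with Id2. The few genes named outside this rule are marked in the text as named after their values were seen.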

Additional observations from a re-analysis of the deposited data

Results flagged for a closer look

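In 78 groups of 4 libraries (39 members, untreated and doxycycline), 4 had a library that stood farther from the others than Dixon's 95% critical value allows, as the share of the group's range taken by its gap. Chance flags about 1 in 20 such groups. Orc6 had a gap of 0.954 in untreated libraries, where replicate 1 was at 54.3 CPM and the others at 50.9 to 51.0. In doxycycline its gap was 0.839, where replicate 1 of the same pair was at 32.2 CPM and the others at 29.9 to 30.3, so both libraries of that pair were high. Pold1 had a gap of 0.867 in untreated libraries, with replicate 3 at 143 CPM and the others at 122 to 125. Chaf1b had a gap of 0.846 in untreated libraries, with replicate 2 at 44.5 CPM and the others at 49.5 to 50.4. All 3 genes kept their fall after doxycycline without the library concerned.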

How the results depend on the processing

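In the doxycycline experiment all 39 members stayed lower and past the threshold under 21 alternatives, with medians from -1.083 to -0.821 and adjusted p from 1.7e-07 to 0.00531. With library totals 6912 genes fell, 2702 rose and the members' median was -1.083, and with quantile normalization it was -0.902. Both change the centring of every library by construction. With the replicate block, which fits the pairing, the member calls were the same 39. In the Id2 experiment 0 members passed under 18 alternatives, with medians from -0.681 to -0.325 and adjusted p from 0.478 to 1. All 39 members stayed below 0 there, except Orc2 at 0.069 without Id2-GFP replicate 2. Leaving out 1 library moved Orc2 between -0.417 and 0.069. Over the whole Id2 table, where 0 genes fell and 2 rose, the replicate block gave 19 lower and 16 higher, array weights 1 lower, and a mean log2 CPM of at least 2 gave 1 higher. Without pair 1 or pair 2, 0 rose. Leaving out 1 library gave 0 to 1 lower and 0 to 2 higher. For the partner ratios after doxycycline, leaving out 1 library gave ranges of -0.023 to 0.038 for Cdt1/Gmnn, 0.334 to 0.436 for Dbf4/Cdc7, -0.273 to -0.194 for Pola1/Pola2, 0.147 to 0.234 for Pold1/Pold2, 0.326 to 0.435 for Rpa1/Rpa2, -0.542 to -0.473 for Chaf1a/Chaf1b and -0.482 to -0.418 for Cdc6/Orc6. Cdt1/Gmnn changed sign in 3 of these, at -0.023, -0.014 and -0.014. With Id2 the ranges were -0.160 to 0.227 for Cdt1/Gmnn, -0.120 to 0.184 for Dbf4/Cdc7, -0.306 to 0.086 for Pold1/Pold2, -0.229 to 0.046 for Pole2/Pole and -0.252 to 0.046 for Cdc6/Orc6, so each of these signs rests on single libraries. The cause of these changes was not tested. In the Id2 experiment the spread between libraries, with member SEs up to 0.302, limits what can be detected.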
